A study of Mus musculus with 3 samples.

Results

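The genes described here encode the proteasome, the barrel-shaped protease that degrades ubiquitin-tagged proteins, and the factors that assemble it. They were taken by name from a table of messenger RNA in mouse RAW264.7 cells. This macrophage line turns into bone-resorbing osteoclasts in culture. Protein-coding genes whose symbol starts with Psm, followed by a letter from a to g and a digit, were kept together with Pomp, which gave 51 of the 54532 genes in the table. Of these, 49 are subunits, regulators or assembly factors of the proteasome, and Psmc3ip and Psme2b entered by name only. The 3 libraries, 1 per group, came from cells of WT genotype that had all been given the osteoclast-inducing cytokine RANKL for 3 days. The T1 and T2 libraries are the pair that then received thyroid stimulating hormone (TSH) at 10 mU/mL, for 2 h in one case and 24 h in the other, and the RANKL alone library received none and is labelled 0 h. The names T1 and T2 do not tell which library had 2 h and which had 24 h, so nothing is read from the hours. All 3 come from an established cell line that was turned into osteoclasts in culture.

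The proteasome core, called 20S, is a stack of rings made of alpha and beta subunits, and the active sites sit on the beta subunits Psmb5, Psmb6 and Psmb7. The 19S regulatory particle caps the core, binds ubiquitin chains, removes them and unfolds the substrate with a ring of ATPases. In cells of the immune system, and under interferon, Psmb8, Psmb9 and Psmb10 can take the places of the constitutive active subunits, which makes the immunoproteasome that supplies peptides for antigen presentation, while Psme1 and Psme2 form the activator that opens the core. Osteoclast formation itself draws on the proteasome, since NF-kappaB signalling downstream of RANKL requires the degradation of its inhibitor.

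The values were deposited by the authors as FPKM, which divides the fragments of a gene by its length in kilobases and by the sequencing depth. Reads per gene recovered from them summed to 16809034 in T1, 17390744 in T2 and 16156926 in RANKL alone. Since each group is a single library, the spread between replicates is unknown and no p-value is given. A ratio of FPKM is given with a 95% interval that covers counting error only, and a gene is called higher or lower beyond counting error where 1 lies outside it, which compares the libraries and not the conditions. Of the osteoclast markers, 9 of 10 averaged at least 1 FPKM and their summed level was 2572 FPKM in T1, 2496 in T2 and 3097 in RANKL alone, with Calcr as the marker under 1 FPKM. All 8 macrophage markers passed that level, at 1473, 1466 and 1503 summed FPKM, while 0 of 7 osteoblast and fibroblast markers, 0 of 6 lymphocyte markers and 0 of 5 dendritic cell markers did. Summed levels of these last lists were 0.267, 0.255 and 0.262 FPKM for osteoblasts and fibroblasts, 0.142, 0.196 and 0 for lymphocytes and 0.74, 0.755 and 0.705 for dendritic cells, in T1, T2 and RANKL alone in that order. Whether the lower osteoclast marker sum in T1 and T2 has a part in the differences described here was not tested.

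The proteasome genes were expressed at closely similar levels in the 3 libraries. Together they took 0.619% of the reads in T1, 0.614% in T2 and 0.614% in RANKL alone, and their summed level was 2491 FPKM in T1, 2436 FPKM in T2 and 2475 FPKM in RANKL alone. Of the 51 members, 50 passed a mean of at least 1 FPKM over the libraries. The exception was Psmb11, an active subunit of the thymus proteasome, which had 0 reads in each library, where a floor of 3 reads corresponds to 0.0373 FPKM in T1, 0.0357 in T2 and 0.0388 in RANKL alone. The 50 genes were well covered, with a median of 6171 reads over the 3 libraries (461 to 22618) beside 1833 for the 11069 genes past the same filter, so that small ratios can leave counting error behind.

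In T1 against RANKL alone, 8 of the 50 members were higher beyond counting error, beside 10.8% of all genes past the filter, and 4 were lower, beside 12.2%. In T2 against RANKL alone, 5 were higher, beside 10.2%, and 10 were lower, beside 13.2%. In T2 against T1, 2 were higher, beside 7.93%, and 8 were lower, beside 10.1%. The RANKL alone library enters both of the TSH comparisons, so those are not independent. In RNA from a whole culture, fewer cells of a kind and less RNA per cell cannot be told apart. No member passed a 2-fold change on the log2(FPKM + 1) scale in any of the 3 comparisons, beside 1.04% of all genes in T1 against RANKL alone, 0.768% in T2 against RANKL alone and 0.831% in T2 against T1. At 1.5-fold there were 0, 1 and 0 members, beside 2.62%, 2.46% and 2.27% of all genes in the same order, and at 1.2-fold there were 1, 4 and 2 members, beside 10.2%, 9.91% and 8.45% of all genes. The member past 1.2-fold in T1 against RANKL alone was Psme2b, which entered by name only. Those in T2 against RANKL alone were Psme2, Psme2b, Psmg1 and Psmg3. The interval lay wholly between 0.8 and 1.25 for 45 members in T1 against RANKL alone, beside 60.0% of all genes, for 44 in T2 against RANKL alone, beside 60.1%, and for 43 in T2 against T1, beside 62.5%. These counts depend on read depth, since more reads give a narrower interval and fewer large changes from counting error. The members had a median of 6171 reads over the libraries, beside 1833 for all genes past the filter.

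These splits depended in part on how the libraries were scaled. After rescaling to the same FPKM total, the higher genes were 31.5% of all calls in T1 against RANKL alone, instead of 46.9%, and the members split into 4 higher and 7 lower. In T2 against RANKL alone the higher share was 48.7% after that rescaling and 52.7% when scaled to the total of reads, instead of 43.7%. The members in that comparison split into 6 higher and 8 lower under either scaling. In T2 against T1 the higher share of all calls was 71.4% after the rescaling to the same FPKM total and 56.8% when scaled to the total of reads, instead of 44.0%. The members there split into 3 higher and 3 lower, and 2 higher and 5 lower. The median log2 change of the 50 members was 0.01 in T1 against RANKL alone (all genes -0.00), -0.02 in T2 against RANKL alone (all genes -0.00) and -0.03 in T2 against T1 (all genes -0.00), and with libraries rescaled to the same total the T1 value was -0.01, beside -0.02 for the median of all genes.

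**Figure D1:**
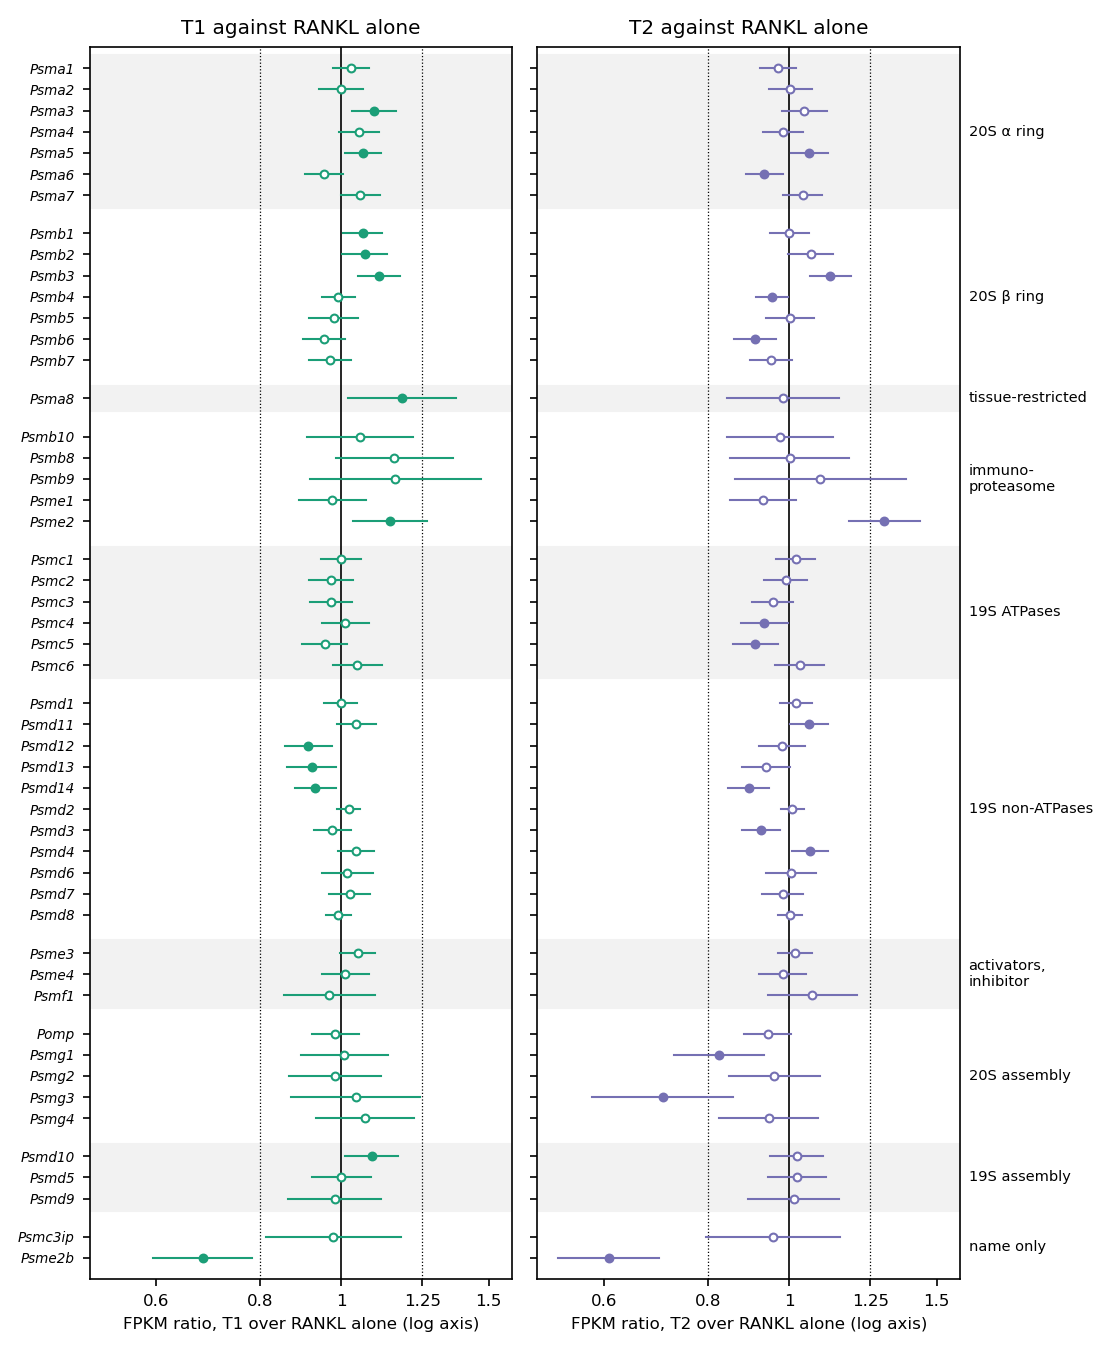
FPKM ratio of T1 (left) and of T2 (right) to RANKL alone on a log axis, for the 50 members past the filter grouped by role. Bars are 95% counting intervals, filled points have an interval that leaves out 1, and dotted lines mark 0.8 and 1.25. Most points lie close to 1, Psme2b lies lowest in both panels (0.683 in T1 and 0.609 in T2), Psme2 lies to the right (1.14 and 1.30), and Psmg1 and Psmg3 lie to the left in T2 only.

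Levels differed far more between subunits than between libraries. In RANKL alone the 14 genes of the constitutive core spanned 30.6 FPKM (Psma3) to 148 FPKM (Psma6), a ratio of 4.83, and the 17 genes of the regulatory particle spanned 25.9 FPKM (Psmd11) to 134 FPKM (Psmd8), a ratio of 5.17. This spread depended on the length by which the deposited values were divided. That length equalled the union of all annotated exons in GENCODE M21 for 47 of the 51 genes. It was up to 3.36 times as long as the principal coding transcript, in Psma7. Per principal transcript length, the coefficient of variation over the 14 core genes in RANKL alone was 0.363, instead of 0.523. The ratio of the highest to the lowest beta ring gene was 2.28 instead of 3.62, and that of the ATPases 2.22 instead of 3.48. The lengths are the same in every library, so ratios between libraries do not depend on this choice.

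Psma2 and Psma3 stood below the other alpha ring genes in FPKM by either length. Per principal transcript they had 45.2 and 41.9 FPKM in RANKL alone, while the next lowest alpha gene, Psma4, had 131 FPKM. The principal transcripts taken for them, the longest of equal rank, have 2911 and 2846 bases. Those of the other alpha genes have 914 (Psma7) to 1239 (Psma5) bases. Reads in RANKL alone numbered 2123 for Psma2 and 1922 for Psma3, beside 2465 for Psma4. How far the gap in FPKM comes from these lengths was not tested. Psma3 shares its sequence with copies described below. Psmd8, a lid subunit, was the highest gene of the regulatory particle by either length, at 266 FPKM per principal transcript in RANKL alone, where Psmd2, a scaffold of the base, had 150 FPKM.

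**Figure D2:**
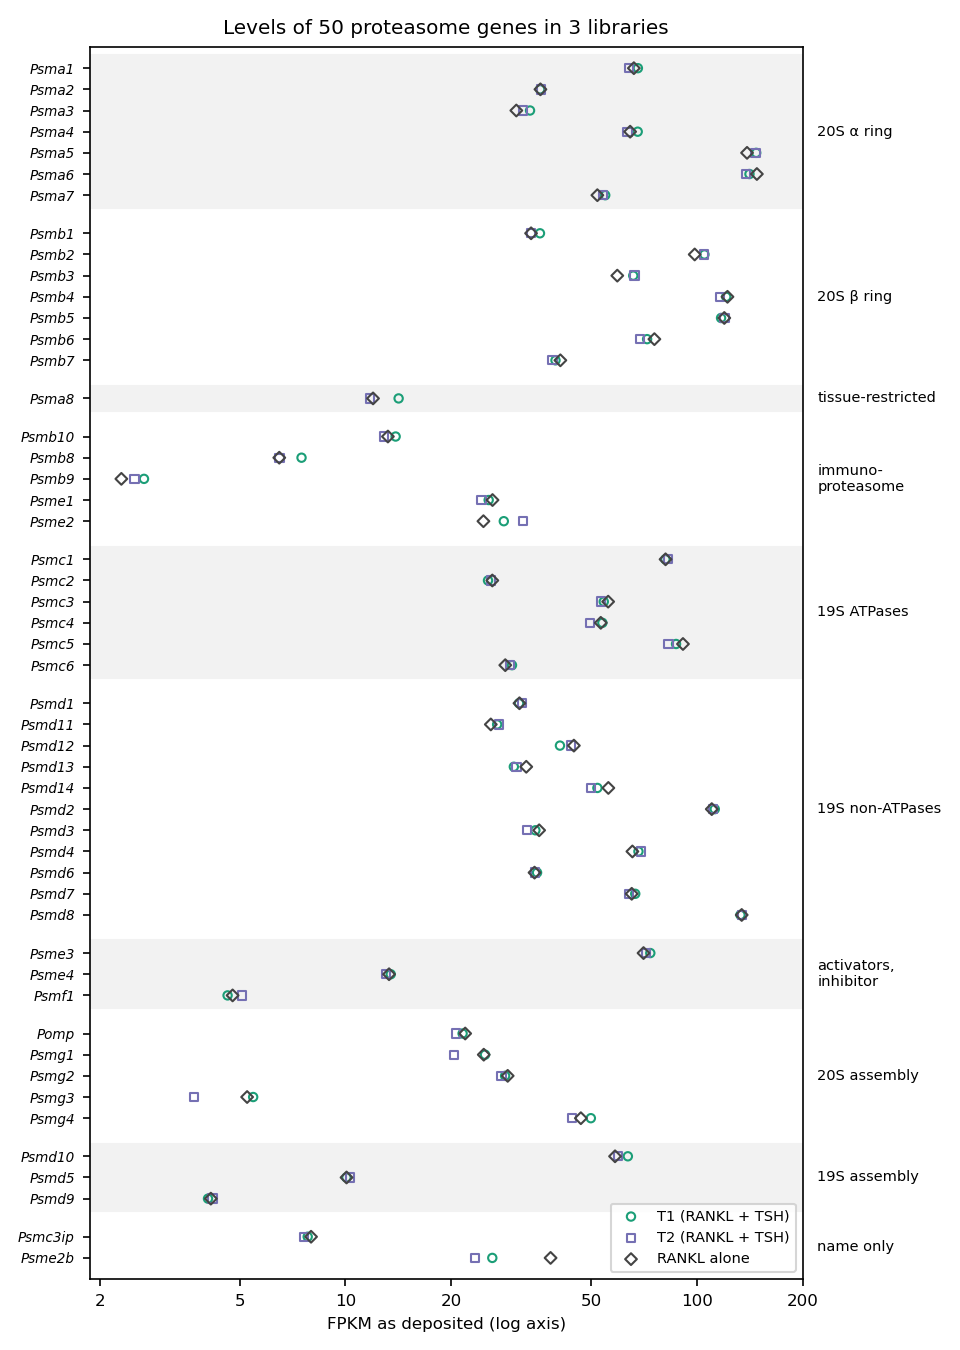
FPKM as deposited, on a log axis, of the 50 members past the filter in T1 (circles), T2 (squares) and RANKL alone (diamonds), grouped by role. The 3 symbols of a gene mostly overlap, while genes range from 2.30 FPKM (Psmb9 in RANKL alone) to 148 FPKM (Psma6 in RANKL alone).

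**Figure D3:**
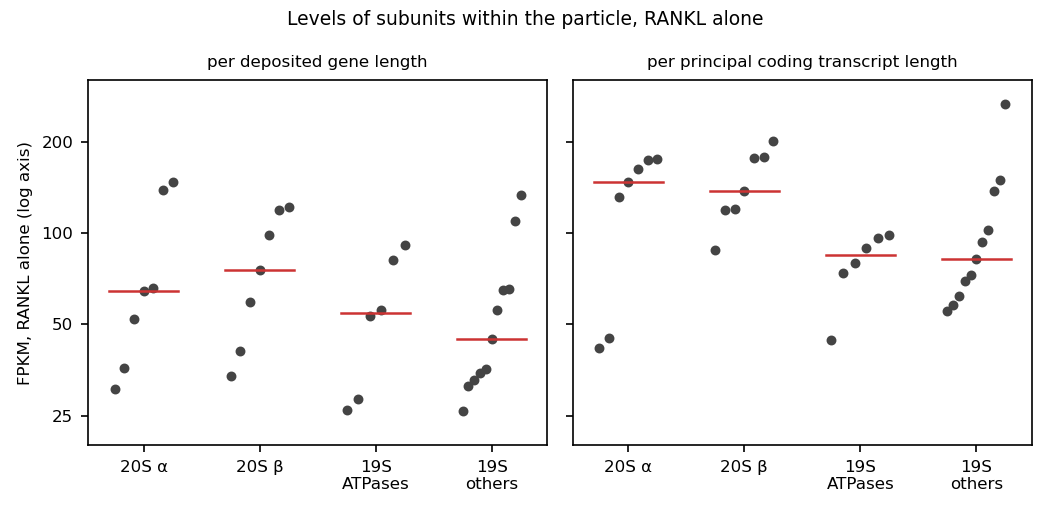
FPKM in RANKL alone, on a log axis, of the 14 constitutive core genes and the 17 regulatory particle genes, per deposited gene length (left) and per principal coding transcript length (right). Each point is a gene and each line the median of a group. The beta ring and the ATPases draw closer together on the right, while a pair of low alpha genes and 1 high 19S gene stay apart.

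The alpha ring, which forms the gate of the core, had 5 of 7 genes above RANKL alone in T1, where 5485 of the 11069 genes past the filter stood above it. Of the 7, 2 were higher beyond counting error (all genes 10.8%), and the median log2 change was 0.07, or 0.04 with the reads of copies added, when the call of Psma3 was lost. In T2 the median was 0.00, with 1 gene higher (all genes 10.2%) and 1 lower (all genes 13.2%) beyond counting error. Psma5 had 147 FPKM in T1 and 147 in T2, against 139 in RANKL alone, and the ratios were 1.06 (1.01 to 1.12) in T1 and 1.06 (1.006 to 1.11) in T2. Psma5 has 2 processed pseudogenes with at least 97.5% identity, and with their reads added the T2 interval took in 1 (0.987 to 1.08). Psma6 had 141 FPKM in T1 and 138 in T2, against 148 in RANKL alone, with ratios of 0.953 (0.905 to 1.003) and 0.933 (0.887 to 0.982). Psma1 and Psma4 were lower in T2 than in T1, at 64.1 FPKM against 67.8 (ratio 0.944, 0.900 to 0.991) and at 63.4 FPKM against 67.8 (ratio 0.936, 0.887 to 0.988).

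Psma3, at chr12:70974621-70996347 on the plus strand of GRCm38, had 33.5 FPKM in T1 and 31.9 in T2, against 30.6 in RANKL alone. Its ratio was 1.09 (1.03 to 1.16) in T1 and 1.04 (0.980 to 1.11) in T2. The processed pseudogene Gm13835 on chromosome 6 matched Psma3 over 665 aligned bases with 0 differing bases, so reads from that stretch cannot be told apart. It held 1048 reads in T1, 1297 in T2 and 1106 in RANKL alone, where Psma3 held 2186, 2177 and 1922. With Gm13835 and 2 further copies added, the ratio was 1.03 (0.976 to 1.08) in T1 and 1.06 (1.005 to 1.11) in T2, which ends the call for T1 and makes one for T2.

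The 7 genes of the constitutive beta ring, which carries the active sites, had 3 genes higher and none lower beyond counting error in T1 (all genes 10.8% and 12.2%), and 1 higher and 2 lower in T2 (all genes 10.2% and 13.2%). Psmb3, a structural beta subunit, had the highest ratio of the core in both TSH comparisons. It had 65.8 FPKM in T1 and 66.3 FPKM in T2, against 59.3 FPKM in RANKL alone, which put both TSH libraries above RANKL alone. The ratios were 1.11 (1.05 to 1.18) in T1 and 1.12 (1.06 to 1.18) in T2, and they were 1.10 (1.04 to 1.16) and 1.12 (1.06 to 1.18) with the reads of 3 pseudogenes added. Psmb1 and Psmb2, which are not catalytic, had ratios of 1.06 (1.004 to 1.12) and 1.07 (1.002 to 1.13) in T1. Psmb1 had 35.7 FPKM in T1 and 33.7 in T2, against 33.7 in RANKL alone. Psmb2 had 105 FPKM in T1 and 104 in T2, against 98.4 in RANKL alone.

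Psmb6, the caspase-like active subunit, had 72.1 FPKM in T1 and 68.7 in T2, against 75.6 in RANKL alone, and was lower beyond counting error in T2 (ratio 0.909, 0.858 to 0.964). Psmb4 had 121 FPKM in T1 and 116 in T2, against 122 in RANKL alone, with a T2 ratio of 0.954 (0.912 to 0.997). Psmb7, the trypsin-like active subunit, had 39.6 FPKM in T1 and 38.8 in T2, against 40.8 in RANKL alone, and neither interval left out 1.

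Psmb5, the chymotrypsin-like active subunit that proteasome inhibitors bind, had 117 FPKM in T1 and 120 in T2, against 119 in RANKL alone. Its T1 ratio was 0.979 (0.916 to 1.05) and its T2 ratio 1.002 (0.938 to 1.07). Psmb5 lies at chr14:54614119-54618022 on the minus strand, and a processed pseudogene of it, Gm3375, lies at chr7:3181093-3181888 on the plus strand. Over 795 aligned bases they differ at 8. The stretch of 120 bases printed here starts at base 268 of the Psmb5 coding sequence and at base 269 of the Gm3375 transcript (GENCODE M21, GRCm38), and it is shown because reads of the gene and of the copy can be separated there only at the 3 bases in capitals, where they differ.
Psmb5: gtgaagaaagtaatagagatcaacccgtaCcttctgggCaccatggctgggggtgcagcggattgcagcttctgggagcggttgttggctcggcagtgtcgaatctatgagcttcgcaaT
Gm3375: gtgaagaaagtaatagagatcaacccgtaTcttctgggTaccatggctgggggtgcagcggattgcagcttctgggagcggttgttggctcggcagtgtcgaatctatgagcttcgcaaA
Gm3375 held 1253 reads in T1, 937 in T2 and 1178 in RANKL alone, which put T2 below the other libraries (T2 ratio 0.732, 0.671 to 0.798). Psmb5 held 1763, 1885 and 1732 reads. Summed, they held 3016 reads in T1, 2822 in T2 and 2910 in RANKL alone, and the T2 ratio of the sum was 0.893 (0.847 to 0.940), against 1.002 for Psmb5 by itself. Whether the pseudogene's reads come from Psmb5 transcripts was not tested, and no source used here gives the handling of reads with several positions.

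Psma8, the alpha subunit of the proteasome of male germ cells, had 14.2 FPKM in T1 and 11.8 in T2, against 12.0 in RANKL alone, and T1 was above the others. The ratio was 1.18 (1.02 to 1.37) in T1 and 0.982 (0.842 to 1.15) in T2, and T2 against T1 was 0.831 (0.718 to 0.961). No near-identical copy was found for it, and its reads numbered 402 in T1, 349 in T2 and 327 in RANKL alone.

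The immunoproteasome genes were low except for the activator. Psmb8 had 7.50 FPKM in T1 and 6.49 in T2, against 6.48 in RANKL alone, so that T1 stood above a level shared by the others. Its ratio was 1.16 (0.986 to 1.36) in T1 and 1.001 (0.850 to 1.18) in T2, and neither left counting error. Psmb9 had 2.67 FPKM in T1 and 2.51 in T2, against 2.30 in RANKL alone, with ratios of 1.16 (0.918 to 1.47) and 1.09 (0.862 to 1.38). Psmb9 overlaps Tap1 on the opposite strand, a gene with 305 reads in T1, 341 in T2 and 279 in RANKL alone, beside 164, 161 and 136 for Psmb9. Psmb10 had 13.9 FPKM in T1 and 12.9 in T2, against 13.2 in RANKL alone, with ratios of 1.05 (0.910 to 1.22) and 0.974 (0.841 to 1.13). Of the 5 immunoproteasome genes, 4 were above RANKL alone in T1 and 3 in T2, where 5485 and 5463 of all 11069 genes did. In each comparison 1 of the 5 was higher beyond counting error, beside 10.8% and 10.2% of all genes, and that gene was Psme2, whose calls were lost when its reads were summed with those of its copy. The median log2 change was 0.15 in T1 and 0.00 in T2, and 0.07 and 0.00 with copies summed.

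Set against the constitutive subunit whose place it takes, each inducible subunit was a minor form in all 3 libraries. Psmb8 was 6.41% of Psmb5 in T1 (5.70 to 7.201) and 5.42% in T2 (4.79 to 6.12), against 5.43% in RANKL alone (4.77 to 6.15). With the reads of Gm3375 counted as Psmb5, these shares were 3.75%, 3.62% and 3.23%. Psmb9 was 3.71% of Psmb6 in T1 and 3.65% in T2, against 3.05% in RANKL alone. Psmb10 was 35.1% of Psmb7 in T1 and 33.1% in T2, against 32.3% in RANKL alone. The deposited length of Psmb7 is 2.95 times its principal transcript, and per principal transcript Psmb10 was 15.5%, 14.6% and 14.3% of Psmb7. By the same length Psmb8 was 10.8%, 9.11% and 9.12% of Psmb5. Psmb10 was the highest of the 3 inducible shares by both lengths.

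Between libraries the ratios of these shares had wide counting intervals, most of which took in 1. The Psmb8 share in T1 was 1.18 times (0.997 to 1.40) that in RANKL alone, and in T2 it was 0.846 times (0.716 to 0.999) that in T1. With the reads of Gm3375 counted as Psmb5, these were 1.16 times (0.984 to 1.37) and 0.966 times (0.822 to 1.14), so that both intervals took in 1. The Psmb9 share was 1.22 times (0.962 to 1.54) in T1 and 1.198 times (0.947 to 1.52) in T2 that of RANKL alone. For Psmb10 these values were 1.09 (0.931 to 1.27) and 1.024 (0.877 to 1.196). The intervals leave room for shifts of the Psmb9 share of up to 1.54 times, since Psmb9 rests on 136 to 164 reads per library.

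**Figure D4:**
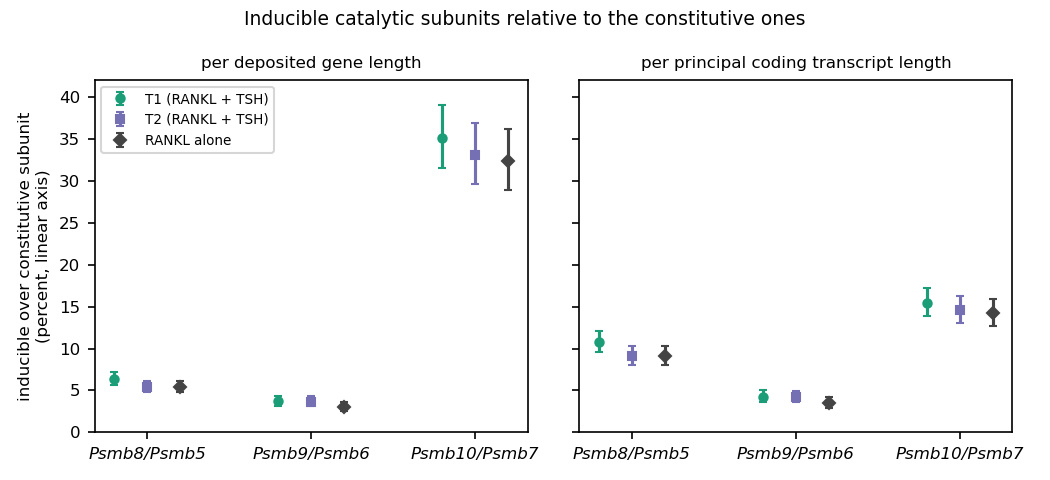
Level of each inducible catalytic subunit in percent of the constitutive subunit it replaces, in T1, T2 and RANKL alone, per deposited gene length (left) and per principal coding transcript length (right), with 95% counting intervals. Psmb10 over Psmb7 is highest on both sides, at 32.3% to 35.1% on the left and 14.3% to 15.5% on the right, and the intervals of the 3 libraries overlap for every pair.

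The activator genes were above all 3 inducible catalytic subunits in each library. Psme1 had 25.5 FPKM in T1 and 24.4 in T2, against 26.2 in RANKL alone, with ratios of 0.975 (0.890 to 1.07) and 0.930 (0.849 to 1.02). Psme2, its partner in the same ring, had 28.2 FPKM in T1 and 32.0 in T2, against 24.7 in RANKL alone, the order T2, T1, RANKL alone. Its ratio was 1.14 (1.03 to 1.27) in T1 and 1.30 (1.18 to 1.43) in T2, and T2 against T1 was 1.14 (1.03 to 1.25). Psme2 was thus the immunoproteasome gene with a difference beyond counting error in each comparison.

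Psme2b, which the name rule also took in, is a near-identical copy of Psme2 that the annotation lists as protein coding. It had 26.1 FPKM in T1 and 23.3 in T2, against 38.3 in RANKL alone, the opposite order to Psme2. Its ratios were 0.683 (0.596 to 0.782) in T1 and 0.609 (0.530 to 0.699) in T2, the lowest of all members in both comparisons, and the T2 change was the only member change past 1.5-fold in the 3 comparisons, beside 2.46% of all genes in that comparison. Psme2 lies at chr14:55587441-55591113 and Psme2b at chr11:48945354-48946190, both on the minus strand of GRCm38. Over 794 aligned bases they differ at 5. All 5 lie in the 717 coding bases and keep the amino acid. Of all windows of 150 aligned bases, 40.9% hold no difference. Bases 424 to 543 of both coding sequences (GENCODE M21) are printed because 3 of the 5 differing bases, in capitals, lie there, and only reads across such bases can be given to the gene or to the copy by sequence.
Psme2: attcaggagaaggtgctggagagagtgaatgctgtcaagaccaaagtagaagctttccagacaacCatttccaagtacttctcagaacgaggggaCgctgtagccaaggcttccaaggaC
Psme2b: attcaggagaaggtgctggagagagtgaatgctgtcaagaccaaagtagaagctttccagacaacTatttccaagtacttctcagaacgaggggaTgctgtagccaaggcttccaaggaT

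Summed over Psme2 and Psme2b, the difference between libraries was within counting error. Psme2 held 834 reads in T1 and 990 in T2, against 702 in RANKL alone, and Psme2b held 367 and 342 reads, against 517. The pair held 1201 reads in T1, 1332 in T2 and 1219 in RANKL alone, with ratios of 0.948 (0.874 to 1.03) and 1.01 (0.930 to 1.09), and T2 against T1 was 1.06 (0.981 to 1.15). What differed was the split, since Psme2b took 30.6% of the pair's reads in T1 and 25.7% in T2, against 42.4% in RANKL alone. On the log2 scale the T1 change of Psme2 was 0.19 by itself and -0.08 as part of the sum. How much of each gene's difference comes from the placing of shared reads was not tested.

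**Figure D5:**
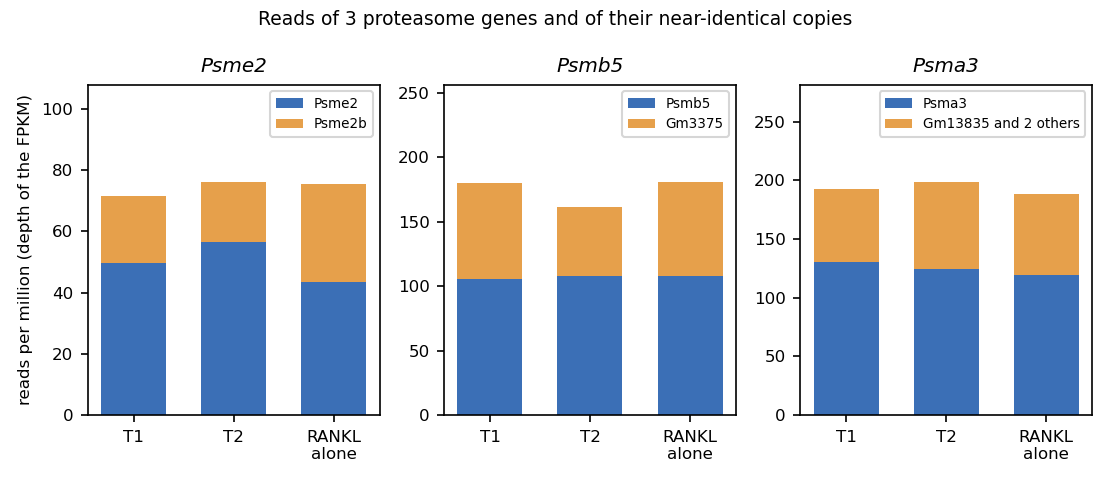
Reads per 1000000 of depth of Psme2, Psmb5 and Psma3 (blue) and of their near-identical copies (orange) in T1, T2 and RANKL alone, stacked on linear axes that start at 0. For Psme2 the bars are of like height (71.6, 76.0 and 75.6) while the copy's part is largest in RANKL alone, and for Psmb5 the T2 bar is lower (161, beside 180 and 180) through the copy's part.

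Few members have copies that hold many reads. In all, 12 of the 51 genes have a copy elsewhere with at least 95% identity, and in 5 of them, Psma3, Psma5, Psmb5, Psme2 and Psme2b, the copies held at least 10% of the summed reads. With copies added, 6 members were higher and 3 lower beyond counting error in T1 against RANKL alone, and 4 higher and 10 lower in T2 against RANKL alone.

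The 19S regulatory particle showed small differences of both signs. In T1, 0 of its 17 genes were higher and 3 were lower beyond counting error (all genes 10.8% and 12.2%), with a median log2 change of -0.00. Those 3 are lid subunits. In T2, 2 were higher and 4 lower (all genes 10.2% and 13.2%), with a median of -0.01. Psmd14, the deubiquitinase that removes ubiquitin chains from substrates, had 52.0 FPKM in T1 and 50.004 in T2, against 55.9 in RANKL alone, so that RANKL alone was the highest library. Its ratios were 0.931 (0.880 to 0.984) in T1 and 0.894 (0.846 to 0.946) in T2. Its lid partner Psmd7 had 66.7 FPKM in T1 and 64.0 in T2, against 65.2 in RANKL alone, with both intervals taking in 1.

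Psmd12 and Psmd13, also of the lid, were lower in T1. Psmd12 had 40.7 FPKM in T1 and 43.7 in T2, against 44.6 in RANKL alone, with a T1 ratio of 0.913 (0.856 to 0.974), and T2 was above T1 (ratio 1.07, 1.006 to 1.14). Psmd13 had 30.1 FPKM in T1 and 30.6 in T2, against 32.7 in RANKL alone, with a T1 ratio of 0.922 (0.862 to 0.986). It overlaps the processed pseudogene Gm15542 on the same strand, with 142 reads in T1, 136 in T2 and 146 in RANKL alone. Sirt3 overlaps Psmd13 on the opposite strand, with 226, 230 and 207 reads in the same order. What part these overlaps have in the Psmd13 values was not tested. Psmd3 was lower in T2, at 32.9 FPKM, than in T1, at 34.7, and RANKL alone, at 35.5, with a ratio to RANKL alone of 0.925 (0.878 to 0.975). Psmd4, a ubiquitin receptor of the particle, was at 68.1 FPKM in T1 and 69.2 in T2, against 65.4 in RANKL alone, with a T2 ratio of 1.06 (1.007 to 1.11). Psmd11, a lid scaffold, had 27.0 FPKM in T1 and 27.3 in T2, against 25.9 in RANKL alone, with a T2 ratio of 1.06 (1.002 to 1.11). Psmd1, the large scaffold of the base, hardly differed, at 31.2 FPKM in T1 and 31.8 in T2, against 31.2 in RANKL alone (ratios 0.998, 0.953 to 1.04, and 1.02, 0.974 to 1.07).

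Among the 6 ATPases, which unfold the substrate, none left counting error in T1 and 2 were lower in T2 (all genes 13.2%). Psmc5 had 87.1 FPKM in T1 and 82.9 in T2, against 91.1 in RANKL alone, with a T2 ratio of 0.910 (0.855 to 0.968). Psmc4 had 53.8 FPKM in T1 and 49.6 in T2, against 53.2 in RANKL alone, with ratios of 0.933 (0.874 to 0.995) for T2 over RANKL alone and 0.923 (0.866 to 0.984) for T2 over T1. Psmc6 had the highest change of the ring in T1, with 29.7 FPKM against 28.5 in RANKL alone, a ratio of 1.05 (0.976 to 1.12). Psmc3 overlaps Slc39a13 on the opposite strand, which held 2333 reads in T1, 2447 in T2 and 2166 in RANKL alone, and no source used here says whether counting used strand.

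The other activators and the inhibitor stayed within counting error. Psme3, the nuclear activator, had 73.6 FPKM in T1 and 71.4 in T2, against 70.4 in RANKL alone (T1 ratio 1.05, 0.997 to 1.10). Psme4, an activator known for its part in the breakdown of acetylated histones, had 13.4 FPKM in T1 and 13.1 in T2, against 13.3 in RANKL alone (T2 ratio 0.982, 0.921 to 1.05). Psmf1, named for inhibiting the core in vitro, had 4.62 FPKM in T1 and 5.09 in T2, against 4.77 in RANKL alone (ratios 0.968, 0.853 to 1.10, and 1.07, 0.943 to 1.204).

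The factors that build the core gave the largest differences of genes without a copy, and these were in T2. All 5 of them were below RANKL alone in T2, where 5605 of all 11069 genes were, and 2 were lower beyond counting error (all genes 13.2%), with a median log2 change of -0.08. In T1, 3 were above and 2 below, and no interval left out 1. The T1 median was 0.01, and after rescaling to the same total it was -0.01, beside -0.02 for all genes. Psmg3, which forms with Psmg4 a chaperone that helps to build the alpha ring, had 5.46 FPKM in T1 and 3.71 in T2, against 5.25 in RANKL alone, so that T2 stood apart from the other libraries. Its T2 ratio was 0.706 (0.581 to 0.858) and its T2 to T1 ratio 0.679 (0.560 to 0.821), from 188 reads in T2 and 245 in RANKL alone. Psmg1, which pairs with Psmg2 in the other alpha ring chaperone, had 24.9 FPKM in T1 and 20.4 in T2, against 24.7 in RANKL alone, again lowest in T2. Its ratio was 0.824 (0.727 to 0.934) in T2 against RANKL alone and 0.817 (0.722 to 0.925) in T2 against T1, from 562, 480 and 536 reads.

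Their partners differed less. Psmg4 had 49.9 FPKM in T1 and 44.1 in T2, against 46.7 in RANKL alone, with a T2 ratio of 0.945 (0.824 to 1.08). Psmg2 had 28.4 FPKM in T1 and 27.8 in T2, against 28.9 in RANKL alone, with a T2 ratio of 0.960 (0.846 to 1.09). Pomp, the maturation factor that brings the unfinished cores together, had 21.5 FPKM in T1 and 20.6 in T2, against 21.9 in RANKL alone, with ratios of 0.983 (0.922 to 1.05) and 0.942 (0.883 to 1.005).

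Of the 3 chaperones of the 19S base, Psmd10, also called gankyrin, was higher in T1. It had 63.5 FPKM in T1 and 59.6 in T2, against 58.4 in RANKL alone, with ratios of 1.09 (1.01 to 1.17) and 1.02 (0.948 to 1.10). Psmd5 had 10.1 FPKM in T1 and 10.3 in T2, against 10.1 in RANKL alone, and Psmd9 had 4.06 FPKM in T1 and 4.19 in T2, against 4.14 in RANKL alone, all within counting error. Psmc3ip, a recombination protein that the name rule took in and that is no proteasome subunit, had 7.81 FPKM in T1 and 7.63 in T2, against 7.98 in RANKL alone.

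Genes that work with the proteasome but fall outside the name rule were read from 4 lists. Of 10 subunits and partners found among 13 symbols, 1 was higher and 3 lower beyond counting error in T1 against RANKL alone, and 0 were higher and 3 lower in T2. Of all genes, 10.8% and 12.2% were higher and lower in T1, and 10.2% and 13.2% in T2. Uchl5, a deubiquitinase of the particle, had 24.5 FPKM in T1 and 21.6 in T2, against 21.3 in RANKL alone (T1 ratio 1.15, 1.06 to 1.26). Zfand5, which activates the proteasome, had 39.7 FPKM in T1 and 39.5 in T2, against 43.7 in RANKL alone (T2 ratio 0.903, 0.865 to 0.942).

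The transcription factor Nfe2l1 raises proteasome genes when proteasome activity is short, and Vcp, Ngly1 and Ddi2 release it from the endoplasmic reticulum. The list read here holds these genes and also Nfe2l2, Keap1, Mafg, Maff and Mafk. Of its 9 genes, 0 were higher and 4 lower beyond counting error in T1 (all genes 10.8% and 12.2%), and 0 were higher and 1 lower in T2 (all genes 10.2% and 13.2%). The 4 were Nfe2l1, Vcp, Keap1 and Mafk, while Ddi2 and Ngly1 stayed within counting error in both comparisons. The median log2 change of the list was -0.07 in T1 and -0.05 in T2. Nfe2l1 itself had 45.8 FPKM in T1 and 49.4 in T2, against 49.8 in RANKL alone, with ratios of 0.919 (0.881 to 0.959) and 0.991 (0.951 to 1.03). Vcp had 96.7 FPKM in T1 and 89.3 in T2, against 101 in RANKL alone (T2 ratio 0.882, 0.854 to 0.910).

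Of 11 genes for ubiquitin supply and shuttling, 3 were higher and 0 lower beyond counting error in T1 (all genes 10.8% and 12.2%), and 3 were higher and 3 lower in T2 (all genes 10.2% and 13.2%). Rps27a, which encodes ubiquitin fused to a ribosomal protein, had 557 FPKM in T1 and 452 in T2, against 485 in RANKL alone, with ratios of 1.15 (1.13 to 1.18) and 0.933 (0.912 to 0.954). Of the antigen peptide list, 8 of 9 genes passed the filter, Irf8 being the exception, and in T1 none of them left counting error. In T2 B2m, the light chain of class I antigen complexes, was higher, at 489 FPKM beside 462 in T1 and 452 in RANKL alone (T2 ratio 1.08, 1.04 to 1.12), and Erap1, a trimming peptidase, was lower, at 6.05 FPKM beside 6.79 and 6.84 (T2 ratio 0.885, 0.801 to 0.978).

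Promoter windows from RefSeq, 250 bases before to 50 after a start site, were matched for 43 of the 51 genes, with 46 windows. The antioxidant response element core TGACNNNGC, searched on both strands, was in 13.0% of them and in 12.4% of all 32851 windows. The interferon-stimulated element (GAAA, 2 bases of any kind, GAAA) was in 10.9% and 3.44%, which is 5 windows, of Psmb3, Psmd4, Psmd9, Psme1 and Psmg4. The gamma-activated sequence TTCNNNGAA was in 6.52%, Psmb8 among them, and 8.30%, and CCAAT was in 32.6% and 37.4%. A match is a description of the letters in the window.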

How the data were processed

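RNA was measured in 3 libraries of RAW264.7 cells, 1 per group. Per the labels' protocols, a SMARTER mRNA kit was used on total RNA. GRCm38 and mm10, names of a single assembly, stand in the submitters' processing notes. No aligner, counting tool, strand setting or annotation is given in the sources used here. Levels are FPKM as deposited by the authors, beside a gene length in bases from the same deposited table, and 0 per-sample columns went unused. The columns named for TSH do not tell 2 h and 24 h apart, so they were planned and read as T1 and T2.

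The genes were matched by symbol (rule in the report). The members, the gene lists, the rule for named genes and the alternatives were chosen with earlier results of these data known. By that rule, ratios are given for the immunoproteasome genes, for members whose interval leaves out 1, for the extremes of each group, for Psmb8 and Psmd1, and for up to 2 genes of each other list per comparison. Other ratios printed were chosen after their values were seen.

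Multiplied by gene length and divided by the smallest step in a library, 100% of FPKM came out whole within 0.01, which gave reads. The depth in the FPKM equals the median-of-ratios size factor times the geometric mean of the read totals within 1e-06%, so median-of-ratios scaling changes nothing. Changes are differences of log2(FPKM + 1), which shrinks the changes of weakly expressed genes, over the 11069 genes that average 1 FPKM or more. Ratios are of FPKM without the added 1, with 95% intervals by the exact conditional method (Clopper-Pearson). These cover counting error only, because each group has 1 library. They treat every read as independent, and PCR duplicates, which count the same molecule again, are not allowed for. The code was tested on simulated reads. Count models were not used.

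Of 42 symbols in the lists outside the name rule, 39 were found. Copies were sought with BLAST+ 2.17.0 among GENCODE M21 transcripts of at least 200 bases (at least 95% identity over 100 bases and 50% of the shorter transcript). Alternatives were pseudocounts of 0.1 and 5, filters at 0 and 5 FPKM, 3 scalings, folds of 1.5 and 1.2, a 99% interval, means in place of medians and members without copies. Summing copies (also in the ratio of Psmb8 to Psmb5), scaling to total reads and principal transcript lengths were added after seeing the data. Python 3.11.15, numpy 2.4.6, pandas 2.3.3, scipy 1.17.1, Biopython 1.88 and matplotlib 3.10.9 were used.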

Additional observations from a re-analysis of the deposited data

How the results depend on the processing

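No paired analysis was possible because each group has 1 library. Of the values recomputed under the alternatives, 1460 stayed close, 60 moved and 1 change beyond counting error turned round, the T1 change of Psme2 against RANKL alone with reads summed over copies (-0.076). The 1460 include values that could not change, such as those under median-of-ratios scaling, so the count is no measure of stability. Also counted as close were all genes higher in T1 against RANKL alone, 1199 and, with libraries rescaled to the same total, 830. Among the values that stayed close are medians near 0 that took the other sign, 27 in all, those of all members and of the core assembly factors in T1 among them. With a 99% interval, the members higher and lower were 3 and 2 in T1 against RANKL alone, 2 and 8 in T2 against RANKL alone and 1 and 2 in T2 against T1, and all genes were 648 and 843, 601 and 933, and 391 and 590 in the same order. With libraries rescaled to the same total, members were 4 and 7 in T1 against RANKL alone and 3 and 3 in T2 against T1, where all genes were 1554 and 623. Scaled to the total of reads, 5 members were lower in T2 against T1, and with copies summed 1 was higher.

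Genes past the fold on the log2 scale, 115, 85 and 92 in T1 against RANKL alone, T2 against RANKL alone and T2 against T1, were 219, 197 and 176 with a pseudocount of 0.1 and 17, 8 and 13 with 5. They were 223, 208 and 201 with no filter and 25, 13 and 16 with a mean of at least 5 FPKM. At 1.5-fold they were 290, 272 and 251, with 1 member in T2 against RANKL alone, and at 1.2-fold 1133, 1097 and 935, with 1, 4 and 2 members.

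With 1 added to both FPKM, Psmb8 was 7.205%, 6.21% and 6.21% of Psmb5 and Psmb9 5.03%, 5.03% and 4.32% of Psmb6, in T1, T2 and RANKL alone. With copies summed Psmb8 was 3.75%, 3.62% and 3.23% of Psmb5. Per principal coding transcript, Psmb8 was 10.8%, 9.11% and 9.12% of Psmb5, and Psmb10 15.5%, 14.6% and 14.3% of Psmb7. The cause of the moves under other scalings was not tested. Limits are the single library per group, the unknown hours of T1 and T2, and reads shared between copies.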
